A study of Mus musculus with 10 samples.

Results

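H3K4me2, histone H3 dimethylated at lysine 4, was mapped by ChIP-seq (chromatin immunoprecipitation, then sequencing) in 8 libraries of mouse lymphocytes, and the genomic regions described here are the short ones that were called as peaks in every library. The peaks of the 8 deposited lists were joined where they lay within 500 bp of each other, which gave 30062 merged regions. A region was kept when all 8 lists had a peak in it and its merged length was under 5000 bp. The members were thus chosen by the presence of a call in each list and by length. They numbered 7328, 24.4% of all merged regions. Another 3710 regions (12.3%) also had a peak in every list but were 5000 bp or longer, and 19024 (63.3%) lacked a peak in at least 1 list.

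The cells came from mice with airway inflammation that are labelled Gata3-YFP/YFP, a reporter allele of the transcription factor gene Gata3 that all groups share, and they were sorted with antibodies and the yellow fluorescent protein. There were n = 2 libraries each of group 2 innate lymphoid cells (ILC2s), of T helper 2 (Th2) cells and of naive T cells. In each pair replicate 1 is from bronchoalveolar lavage fluid and replicate 2 from a mediastinal lymph node, and paired values follow this order. Spleen and thymus CD4+ cells had 1 library each. Sort gates, age, sex and strain background are not given in the sources used here, nor is it stated whether libraries come from separate animals, so p-values measure only the spread between these samples, in which site and replicate cannot be told apart.

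H3K4me2 marks the nucleosomes around promoters and enhancers that are active or can become active. At promoters it usually flanks a nucleosome-poor start site, and at genes needed by every cell the mark is present whatever the cell type. Such genes often start in CpG islands, stretches rich in the dinucleotide CpG that stay unmethylated. ILC2s are lymphocytes without antigen receptors that make the same type 2 cytokines as Th2 cells. Promoters of general cell functions are in use in all of these cells, and T cell receptor genes are not.

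The promoter sequences below show both ends of the set. Phykpl, Bud13 and Cuta are the members over a promoter with the smallest spread of height over the 8 libraries among those eligible for display, and Nek6, Abcc4 and Ehd3 are the members over a promoter of a protein-coding gene with the smallest p in a test for a difference among the 3 airway cell types. Each run holds the 250 bases before the most upstream annotated start in the region, 5′ to 3′ on the strand of the gene, from RefSeq's GRCm38.p6 assembly (mm10 coordinates). Capitals mark matches, on either strand, to the short motifs listed with the promoter results, where the reverse complement is printed for a match on the opposite strand. Phykpl is shown from chr11:51584531-51584780 on the plus strand, Bud13 from chr9:46282762-46283011 on the plus strand, Cuta from chr17:26939539-26939788 on the minus strand, Nek6 from chr2:38511447-38511696 on the plus strand, Abcc4 from chr14:118706220-118706469 on the minus strand and Ehd3 from chr17:73804591-73804840 on the plus strand.
Phykpl: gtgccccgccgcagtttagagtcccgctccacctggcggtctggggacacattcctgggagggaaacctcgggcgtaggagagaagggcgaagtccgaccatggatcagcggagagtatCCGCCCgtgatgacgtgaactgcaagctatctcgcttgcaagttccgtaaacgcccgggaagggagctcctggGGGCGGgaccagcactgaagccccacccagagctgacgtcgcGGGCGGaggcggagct
Bud13: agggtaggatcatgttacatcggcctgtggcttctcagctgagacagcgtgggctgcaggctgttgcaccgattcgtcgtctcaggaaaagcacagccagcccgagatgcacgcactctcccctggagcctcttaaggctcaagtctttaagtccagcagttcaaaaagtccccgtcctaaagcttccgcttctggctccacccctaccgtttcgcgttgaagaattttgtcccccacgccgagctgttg
Cuta: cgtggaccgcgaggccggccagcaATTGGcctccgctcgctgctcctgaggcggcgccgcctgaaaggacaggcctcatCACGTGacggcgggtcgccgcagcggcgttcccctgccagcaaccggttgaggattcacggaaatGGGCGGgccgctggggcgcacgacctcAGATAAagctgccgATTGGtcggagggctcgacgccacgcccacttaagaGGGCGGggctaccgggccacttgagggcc
Nek6: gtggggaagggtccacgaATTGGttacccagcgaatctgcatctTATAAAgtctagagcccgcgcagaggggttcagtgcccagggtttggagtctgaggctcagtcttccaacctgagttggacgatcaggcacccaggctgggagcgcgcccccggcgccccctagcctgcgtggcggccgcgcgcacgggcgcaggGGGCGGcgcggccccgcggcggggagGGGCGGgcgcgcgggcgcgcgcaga
Abcc4: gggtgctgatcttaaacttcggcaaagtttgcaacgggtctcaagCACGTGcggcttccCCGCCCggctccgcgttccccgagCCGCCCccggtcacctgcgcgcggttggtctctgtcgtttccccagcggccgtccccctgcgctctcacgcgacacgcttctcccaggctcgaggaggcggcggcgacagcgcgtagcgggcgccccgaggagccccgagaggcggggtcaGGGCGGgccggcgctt
Ehd3: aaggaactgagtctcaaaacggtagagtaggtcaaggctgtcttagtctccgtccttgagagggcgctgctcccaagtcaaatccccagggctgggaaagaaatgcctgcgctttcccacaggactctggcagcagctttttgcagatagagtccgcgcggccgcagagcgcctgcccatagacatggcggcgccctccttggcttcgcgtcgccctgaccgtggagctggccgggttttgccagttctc
The 3 steady promoters held 22, 14 and 29 CpG dinucleotides at a GC content of 64.8%, 56.0% and 69.6%. The 3 varying promoters held 29, 35 and 16 at 71.2%, 72.0% and 60.0%, so the 2 sets overlap in both measures. Bud13 and Ehd3 had no match to any of the motifs.

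Some facts of the libraries bear on all results. Depth was 11870820 to 24945548 tags, and the authors' estimate of immunoprecipitation efficiency (tags in peaks out of all tags) was 28.71% to 53.68%, lowest in the Th2 libraries at 28.71% and 29.3%. The 2 naive T libraries did not resemble each other most: over the short regions the lymph node library was closest to spleen CD4+ cells and the lavage library to lavage Th2 cells, as the paragraph on pairs of libraries gives in numbers. The cell labels were checked against marker genes. Summed tags over the T cell markers Cd3e, Cd3d, Cd4 and Lck were 4470.2 to 9417.0 in the 6 T cell libraries and 899.8 and 904.0 in ILC2s, and those over 8 type 2 and ILC2 markers were 23665.1 and 24557.3 in ILC2s and 4182.3 to 7927.5 elsewhere. Summed tags over 6 thymus markers were 16497.1 in the thymus library and 359.9 to 2511.9 elsewhere. Of these, Cd8a and Rag1 had peaks in the thymus list alone, while Cd8b1, Rag2 and Dntt also had lower ones in some other lists. Among markers of other cell types, no peak in any list was found for 2 of 6 of B cells, 5 of 7 of myeloid cells (with Csf1r and Lyz2), 4 of 6 of eosinophils and mast cells (with Siglecf and Epx), 3 of 5 of natural killer cells (with Ncr1) and 3 of 6 of epithelium (with Krt8). The rest had peaks in at least 1 list, so that summed tags per library were 562.2 to 1446.2 over the B cell markers, 84.2 to 241.2 over the myeloid, 110.3 to 824.7 over the eosinophil and mast cell, 0.0 to 547.2 over the natural killer cell and 117.1 to 646.8 over the epithelial ones. The B cell sums came mostly from Cd79a, at 498.7 to 1391.9 in all 8 libraries, and the highest eosinophil and mast cell sums were those of ILC2s, with Cpa3 at 327.5 and 515.5. The part of such cells in the results was not tested.

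Short constitutive regions were peaks of moderate height. At least 99.95% of them held a single peak in each library. Their height, the deposited tag count of the peak scaled to 10000000 tags in the library, had a median per library of 170 and 243 in naive T cells, 125 and 126 in Th2 cells, 172 and 177 in ILC2s, 211 in spleen and 259.5 in thymus CD4+ cells. The Th2 medians were the lowest and the thymus median the highest. The lowest member per library lay at 35.4 to 40.2 tags, close to the authors' tag minimum of 39.9 to 40.4, and the highest at 429.6 to 781.7. The median member was counted from 150 tags in the lymph node Th2 library to 597 tags in the lymph node naive T library, so counting alone gives it an SD of 0.082 on the log2 scale (a value for counting error only). Members made up 33.3% to 49.8% of the peaks of a list and held 30.2% to 36.4% of the tags in its peaks. Their median excess over the immunoglobulin G background, as the authors' ratio, was 25.3-fold to 57.4-fold, beside 24.5-fold to 58.4-fold for the longer regions.

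Merged length was 1036 to 4999 bp, with a median of 3306 bp and quartiles of 2764 and 3933 bp. The members nearest to the length limit were the regions over the promoters of Dynlrb1, a dynein light chain gene (chr2:155235043-155240042, 4999 bp), and Ulbp1, which encodes a ligand of the receptor NKG2D (chr10:7469837-7474835, 4998 bp). Just outside it lay regions of 5000 bp at Sipa1l1 (chr12:82244189-82249189) and Kif5c (chr2:49616182-49621182). Tags at Dynlrb1 were 265 and 397 in naive T cells, 228 and 244 in Th2 cells, 317 and 318 in ILC2s, 363 in spleen and 443 in thymus CD4+ cells. Tags at Sipa1l1 were 329 and 89 in naive T cells, 325 and 373 in Th2 cells, 557 and 558 in ILC2s, 90.9 in spleen and 321 in thymus CD4+ cells. The SD over the 8 libraries was 0.08 at Dynlrb1 and 0.46 at Ulbp1, just under the limit, and 1.25 at Sipa1l1 and 0.56 at Kif5c, at the limit.

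The rule needs a call in every list, and most short regions that failed it failed clearly. Of all regions under 5000 bp, 5065 were called in a single list and 7328 in all 8, while 1172 were called in exactly 7. Among these 1172 regions, the missing list was that of lymph node Th2 cells in 408 (34.8%), thymus CD4+ cells in 380 (32.4%) and lavage Th2 cells in 280 (23.9%). The 5 other lists were the missing one in 3 to 34 regions each. Membership at the margin was therefore set mostly by the 2 Th2 libraries, which had the lowest efficiency, and by the thymus; the part of efficiency in this was not tested.

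Most members lay at genes. Of the 7328 regions, 6309 (86.1%) overlapped the interval of a protein-coding gene, beside 91.3% of the longer constitutive regions and 63.1% of the regions not called in all lists. Promoter windows ran from 250 bases before to 50 after an annotated start of a coding or long noncoding RNA (lncRNA) gene. Such a window was overlapped by 4785 (65.3%), beside 69.4% and 14.8%. Coding windows alone were overlapped by 4529 (61.8%), beside 64.9% and 11.6%. The windows come from a RefSeq table that covers 17492 of 21900 coding genes and none on chromosome 18. Leaving that chromosome out, the share was 67.1%. Another 861 members overlapped no window but an end of a gene that has none in the table, and counting these too gave 5646 members (77.0%) at a window or gene end, beside 80.1% of the longer regions. Since the gene table gives no strand, that end can be the start or the last base. Only 826 members lay inside a gene away from such ends, and 856 (11.7%) overlapped neither a gene nor a window. Counted apart from windows, 90 members had no coding gene within 100 kb, and these can overlap a window of a gene that is not protein-coding.

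At coding promoters the short regions sat just downstream of the start. The midpoint of the 4529 members over a coding window lay a median of 331 bp downstream, with quartiles of 109 and 582 bp, and on the downstream side in 84.1%. The midpoints of the 2408 longer regions were spread far more widely, with a median of 1170 bp downstream and quartiles of -38 and 2260 bp. Because each region must reach the window, its length limits how far its midpoint can lie from the start. The length rule thus sets part of this difference in spread. Windows on both strands, as at divergent gene pairs, were covered by 521 members (11.5% of those over a coding window), beside 16.4% of longer regions and 2.7% of regions not in all lists. By chromosome, members per 100 coding genes ranged from 14.1 on the X chromosome (136 members) and 25.4 on chromosome 7 to 40.6 on chromosome 10.

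**Figure D1:**
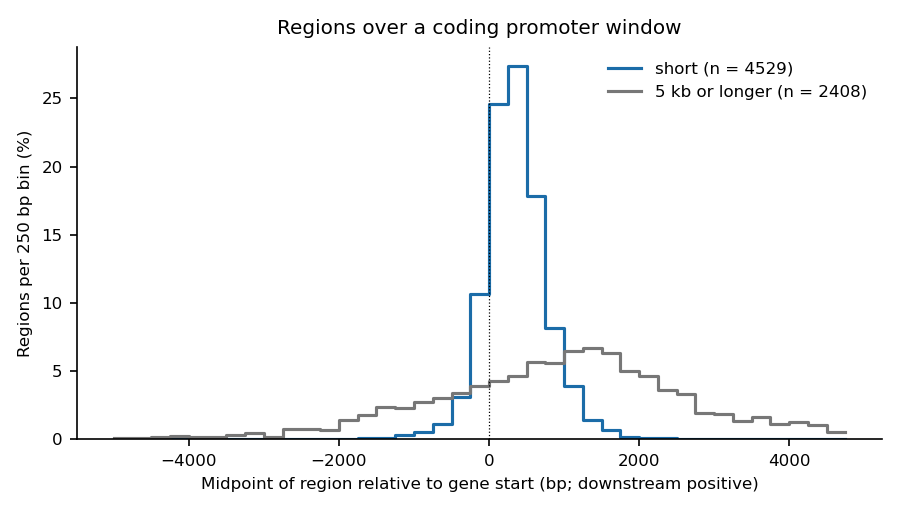
Position of region midpoints relative to the nearest annotated start, in bp with downstream positive, for short constitutive regions (blue) and those of 5 kb or longer (grey) that overlap a coding promoter window; the y axis is the share of regions per bin of 250 bp. The short regions form a narrow peak just downstream of the start (median 331 bp), and the longer regions spread widely with a median of 1170 bp. The length limit bounds how far the midpoints of short regions can lie from the start.

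Of 18 lists of genes with general cell functions, 16 carried short constitutive regions at a higher share than all protein-coding genes, and 2, tubulin and actin genes and histone genes, at a lower one. Of 21631 protein-coding genes, 6952 (32.1%) had one over the gene or its promoter. The share was 66 of 78 (84.6%) for mitochondrial ribosomal proteins, 72 of 96 (75.0%) for subunits of the respiratory chain, which makes ATP in mitochondria, and 57 of 89 (64.0%) for cytosolic ribosomal proteins. For tRNA synthetases, which load tRNAs with amino acids, it was 28 of 37 (75.7%), and for translation initiation factors 34 of 55 (61.8%). Proteasome genes, whose products degrade proteins, had 37 of 51 (72.5%) and the COP9 signalosome, which acts on ubiquitin ligases, 8 of 9 (88.9%). In the nucleus, the counts were 23 of 30 (76.7%) for Mediator, 10 of 13 for RNA polymerase II, 8 of 10 for the RNA exosome, 29 of 42 (69.0%) for DNA repair, 15 of 21 (71.4%) for nucleoporins and 25 of 45 (55.6%) for splicing factors. Chaperonin genes had 7 of 10, the large zinc finger family Zfp 211 of 397 (53.1%), ubiquitin-conjugating enzymes 17 of 37 (45.9%), and tubulin and actin genes 13 of 43 (30.2%).

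In lists of lymphocyte genes the constitutive regions were mostly long ones. Histone genes, which lie in dense clusters, had a short region in 4 of 68 and only a longer constitutive region in 55. Resting T cell genes had 1 of 10 with a short and 9 with only a longer region, and type 2 genes 1 of 16 and 8. The short ones lay in gene bodies of Rora, a transcription factor gene of ILC2s, and of Bach2, a transcription factor gene of resting lymphocytes. Both genes also had a long constitutive region. The lists of other cell types had at most 1 gene each with a short region: Cd14 of 7 myeloid genes, Epcam of 6 epithelial genes, and none of 6 B cell, 6 eosinophil and mast cell or 5 natural killer cell genes. Of 1463 olfactory and vomeronasal receptor genes, used chiefly by sensory neurons, 1 had a short region (Olfr525).

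Promoters under short regions were rich in CpG. The 6657 windows they covered, lncRNA starts included, had a median GC content of 61.0% and 7.33 CpG per 100 bases, against 49.0% and 1.33 in the 21878 windows with no region in all 8 lists. The observed over expected CpG ratio was 0.80 against 0.25. Windows under longer regions were much like those under short ones, at 62.7%, 7.33 and a ratio of 0.78. By the usual criteria of a ratio of at least 0.6 and a GC content of at least 50%, 75.0% were CpG-rich. The share was 68.1% of windows under longer regions, 13.7% of windows with no such region and 33.3% of all 32851 windows. These sets differed in make-up. Coding genes had 5849 of the 6657 windows under short regions, 11786 of the 21878 and 21263 of all 32851, and lncRNA genes the rest. The part of this in the sequence differences was not tested.

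Short motifs were searched as exact letters on both strands of the windows. The GC box GGGCGG, bound by Sp and Klf factors, was in 65.4% of windows under short regions and 35.7% of all windows. The ETS motif CCGGAAGT was in 11.3% against 3.9%, with 6.8% under longer regions and 1.1% of windows with no region in all lists. ACCGGAAG, another ETS form that overlaps the first, was in 6.8% against 2.3% of all windows. GCGCATGC, the core of the motif of Nrf1, which regulates mitochondrial genes, was in 6.5% against 2.7%. The part AAGATGGC of the YY1 motif was in 5.6% against 2.7%, the cyclic AMP response element TGACGTCA in 4.0% against 1.8%, the E-box CACGTG in 10.8% against 7.2% and ACTACAAT, part of the Zfp143 motif, in 1.2% against 0.7%. CCAAT, read by NF-Y, was about as common in both (39.8% and 37.4%). The TATA box TATAAA was in 6.0% against 13.6% and the GATA motif AGATAA in 5.8% against 11.2%. A difference in base composition goes with these shares, since windows under short regions were richer in GC. The shares were corrected neither for this nor for the share of windows at coding genes.

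To compare heights, log2 tags of each library were centred on the library's median over the 11038 regions with a peak in all lists. The short regions' own medians then lay between -0.21 and -0.35 in the 8 libraries. The spread of a member is given as the SD of its 8 centred values and as the fold between its highest and lowest library after centring. A peak is required in every list, which bounds heights from below. The length limit can bound them from above, since tags are those of the whole peak. A region whose peak is long in any library passes the limit and counts as a longer region. Both rules can narrow the spread of members, so steadiness is described here and not tested.

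Height was steady at most members. The median SD was 0.24 (quartiles 0.16 and 0.39), beside 0.40 (0.24 and 0.66) for the longer regions. The length rule can set part of this and the following differences from longer regions, and its part was not tested. The median fold between highest and lowest library was 1.62, beside 2.15. All 8 libraries lay within 1.5-fold at 2867 members (39.1%, longer regions 17.1%) and within 2-fold at 5095 (69.5%, longer regions 44.3%). A range of over 4-fold was seen at 362 (4.9%, longer regions 21.4%) and of over 8-fold at 37. Without centring the median SD was 0.45.

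Members over promoters had the smallest spread. The median SD was 0.21 over a promoter window and 0.22 for the 861 members over an end of a gene without a window. It was 0.41 for the 826 other members over a gene but no window and 0.38 outside genes. Members with no protein-coding gene within 100 kb had 0.44. Taller members were also steadier, with medians over 4 equal classes of height, from low to high, of 0.39, 0.27, 0.20 and 0.17, and counting error fell along them from 0.109 to 0.066. Within each of these classes members with a window had the smaller median, at 0.36 against 0.42, 0.25 against 0.34, 0.19 against 0.25 and 0.17 against 0.20. Ranked by SD, 82.0% of the steadiest of 10 equal classes and 34.8% of the most variable overlapped a window, while the share over neither a gene nor a window went from 2.7% to 26.2%. Motif shares moved with the spread too. CCGGAAGT was in 14.3% of windows under the steadiest of 4 equal classes of members and 6.2% under the most variable, TGACGTCA in 4.9% and 2.3%, and CpG-rich windows made up 81.1% and 66.0%, while GGGCGG was in 65.6% and 64.4%.

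**Figure D2:**
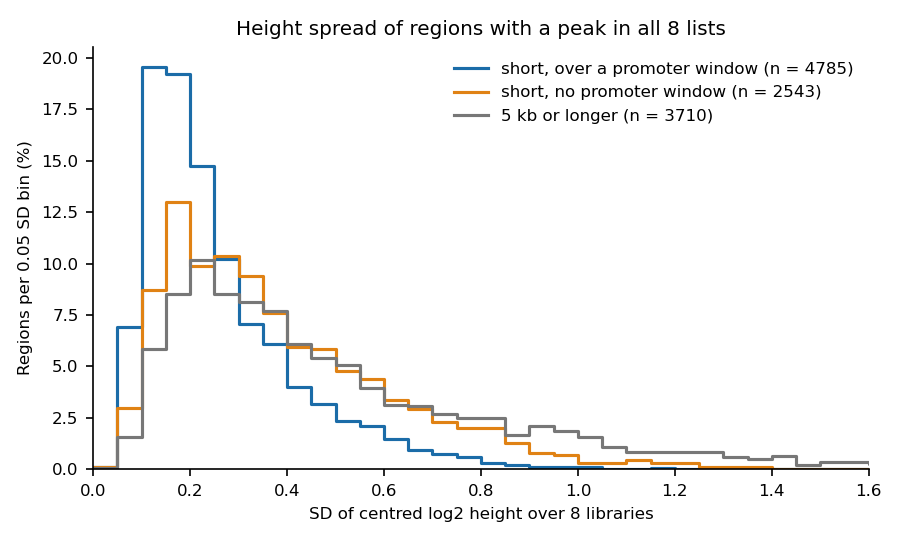
Distribution of the SD of centred log2 height over the 8 libraries (x axis) for short constitutive regions over a promoter window (blue), short ones without a window (orange) and constitutive regions of 5 kb or longer (grey); the y axis is the share of regions per bin of 0.05. The promoter members pile up at a low SD (median 0.21), and the longer regions have the longest tail (median 0.40). The length limit can set part of the difference between short and longer regions.

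**Figure D3:**
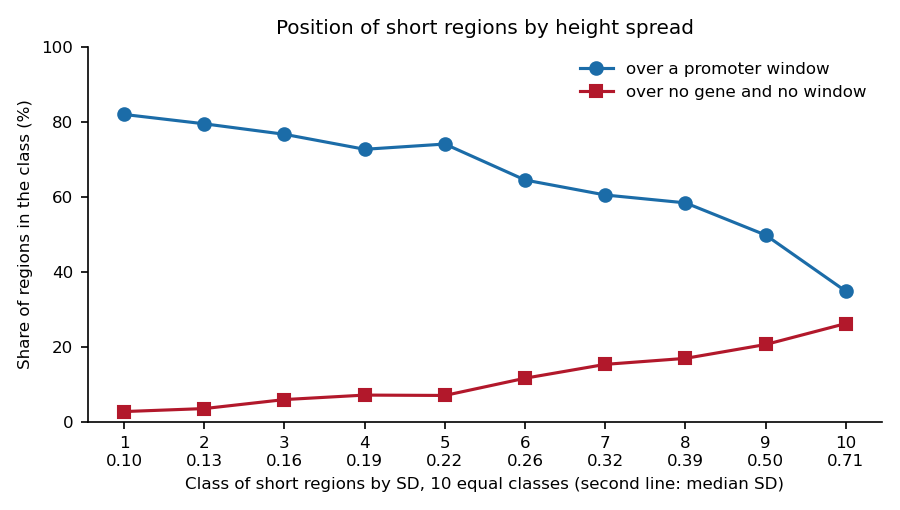
Share of short constitutive regions over a promoter window (blue circles) and over neither a gene nor a window (red squares), in 10 equal classes of the regions ranked by SD of height, with the median SD of each class under the axis. From the steadiest to the most variable class the first share goes from 82.0% to 34.8% and the second from 2.7% to 26.2%.

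The 10 steadiest members each lay at the start or end of a gene. Their SD was 0.030 to 0.052 and their fold between highest and lowest library 1.06 to 1.11, within the size of counting error. The smallest SD was at the pair Hars and Hars2, which encode the cytosolic and the mitochondrial histidyl-tRNA synthetase. B3galnt2, a sugar transferase gene that acts on dystroglycan, followed with 0.038 (chr13:13952795-13956640). Next came Phykpl, an enzyme gene of lysine breakdown, with 0.040 (chr11:51583181-51586483), and Bud13, a pre-mRNA splicing gene, with 0.048 (chr9:46281790-46284769). Tags at Bud13 were 162 and 228 in naive T cells, 120.3 and 136 in Th2 cells, 167 and 169.5 in ILC2s, 206 in spleen and 248 in thymus CD4+ cells. Tags at Cuta (chr17:26937390-26941187) were 204 and 279.9 in naive T cells, 161 and 174 in Th2 cells, 212 and 218 in ILC2s, 243 in spleen and 303 in thymus CD4+ cells, an SD of 0.049. Both genes show the pattern of the whole library, low in Th2 and high in thymus and lymph node naive T cells, which centring removes. Armh3, Cilk1 with Fbxo9, Usp45 (a deubiquitinase gene), Slc46a3 (a lysosomal transporter gene) and Ric8b (a chaperone gene of G proteins) completed the list.

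The tallest members were likewise steady. The 5 tallest by mean centred height lay at 0610010K14Rik, between Pxn, which encodes the adhesion protein paxillin, and Sirt4, at the transcriptional repressor gene Dr1, 15192 bp from Olfr1368, and between Map3k12 and Tarbp2, which encodes a partner of Dicer. Tags at Dr1 (chr5:108267764-108272672) were 459 and 622 in naive T cells, 382 and 345 in Th2 cells, 439 and 465 in ILC2s, 514 in spleen and 657 in thymus CD4+ cells. Its SD was 0.075, and those of the others were 0.11 to 0.25. The 5 lowest had geometric means of 48.0 to 52.4 tags and SDs of 0.23 to 0.52, and none overlapped a promoter window. The lowest of all, at chr1:69241592-69242682 with no protein-coding gene within 100 kb, was 1 peak window of 1000 bp in every library, with 39.4 to 63.0 tags.

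Over the 677 short regions of the 18 general lists the median SD was 0.19, and 579 (85.5%) varied by no more than 2-fold, beside 0.22 and 73.1% over the 6310 short regions at coding genes. By list the median SD was 0.14 for the respiratory chain, 0.16 for cytosolic ribosomal proteins and tRNA synthetases, 0.19 for the proteasome and 0.21 for mitochondrial ribosomal proteins. It was 0.22 for DNA repair, 0.23 for histones and 0.25 for both the COP9 signalosome and tubulin and actin, so 14 of the 18 lists were below the value over all coding genes. The range within 2-fold covered 57 of 59 regions of cytosolic ribosomal proteins, 68 of 73 of the respiratory chain and 26 of 27 of tRNA synthetases, but 17 of 23 of Mediator, 23 of 32 of DNA repair and 9 of 13 of tubulin and actin. Tags at Rps12, a ribosomal protein gene (chr10:23784512-23789262), were 323 and 502 in naive T cells, 244 and 240.1 in Th2 cells, 363 and 379 in ILC2s, 434 in spleen and 519.5 in thymus CD4+ cells. Tags at Psmd5, a proteasome assembly gene (chr2:34868823-34872535), were 287 and 355 in naive T cells, 232 and 224 in Th2 cells, 269 and 300.5 in ILC2s, 349.6 in spleen and 410.3 in thymus CD4+ cells. Both follow the library medians, with SDs of 0.096 and 0.083. Among identity genes, the region inside Rora had an SD of 0.27 and 1.66-fold between its highest and lowest library. The region inside Bach2 (chr4:32262411-32265934) had an SD of 0.78. Tags at Bach2 were 81.9 and 261 in naive T cells, 69.2 and 57.3 in Th2 cells, 77 and 66.6 in ILC2s, 202 in spleen and 50.4 in thymus CD4+ cells. Its high values were those of lymph node naive T cells and spleen, and no contrast among the airway cell types called it.

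Pairs of libraries differed in how closely heights matched. The smallest median absolute log2 difference over members was 0.078, between lymph node naive T cells and spleen CD4+ cells, where 7 members differed by over 2-fold. The ILC2 pair followed at 0.117 with 18 such members, although its 2 libraries came from different sites. The Th2 pair was at 0.203 and the naive T pair at 0.231, which is more than the 0.178 between lavage naive T cells and lavage Th2 cells. The largest difference, 0.379, was between lymph node Th2 and thymus CD4+ cells, with 1106 members (15.1%) over 2-fold apart. The 2 libraries labelled naive T thus differed more than either differed from its nearest library of another label.

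**Figure D4:**
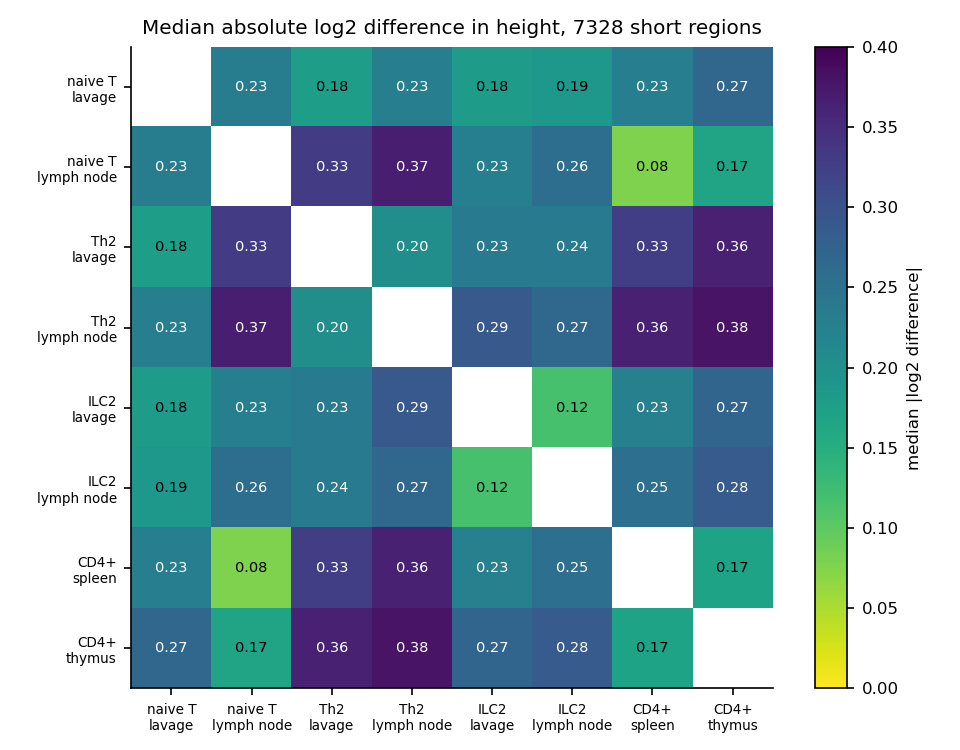
Median absolute log2 difference in centred height over the 7328 short constitutive regions for each pair of the 8 libraries; colour and printed numbers give the same value, and the diagonal is empty. The smallest is between lymph node naive T and spleen CD4+ cells (0.078), then the ILC2 pair (0.117); the largest is between lymph node Th2 and thymus CD4+ cells (0.379).

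The members that varied most over all 8 libraries were mostly low in the thymus. Of the 362 members with a range of over 4-fold, the thymus library was the lowest in 198 (54.7%) and lymph node Th2 cells in 60 (16.6%), while the highest value was spread over all libraries, at 4.1% to 15.5% each. A promoter window was overlapped by 97 (26.8%), and 51 varied by less than 2-fold among the 6 airway libraries. By cell type means the thymus was lowest in 210, with a median of 57.0 tags there and 136 in the spleen, and in 102 of these the thymus peak was a single unextended window of 1000 bp. The thymus has 1 library, so these values have no replicate check.

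All 10 members with the largest range of cell type means were lowest in the thymus. S100a6, which encodes a calcium-binding protein, led with a range of 3.77 on the log2 scale over its promoter (chr3:90611686-90616138). Its tags were 402 and 85.3 in naive T cells, 307 and 222 in Th2 cells, 380.0 and 356 in ILC2s, 185 in spleen and 38.3 in thymus CD4+ cells. The lavage and lymph node naive T libraries stood far apart, and the latter was the nearest to the low thymus value. Ptk2b, which encodes a focal adhesion kinase, had a range of 3.71 inside the gene (chr14:66256787-66261721). Its tags were 333 and 247 in naive T cells, 295 and 326 in Th2 cells, 194 and 190.5 in ILC2s, 200.4 in spleen and 45.2 in thymus CD4+ cells. Here all libraries but the thymus were at 190.5 to 333 tags. The same held for Cfap45 (3.57), at 196 to 322, and for Dipk1a (3.46), at 236 to 423. Wwox (3.74, 43996 bp outside the gene), the DNA-binding replication protein gene Rpa1 (3.54), Fkbp3 (3.48), the adaptor gene Samsn1 (3.39, 1153 bp outside), Cdkl3 (3.36) and Arid5b (3.33) made up the rest. None of these 10 passed the F test among the airway cell types (limma adjusted p = 0.094 to 0.5).

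Differences among the airway cell types were tested with limma on the centred log2 heights of the 6 airway libraries, n = 2 per cell type, with Benjamini-Hochberg adjustment over all 11038 constitutive regions and a threshold of 0.05. Among the 3 cell types 189 members (2.58%) differed by the moderated F test, beside 4.89% of all regions tested. The share was 1.69% of members over a promoter window and 4.25% of the others. The length limit can also lower the share of members beside that of all regions, here and in the contrasts below. By mean height ILC2s were highest in 96 of the 189, naive T cells in 67 and Th2 cells in 26, and Th2 cells were lowest in 110. Without centring 649 members were called and with quantile normalization 125. No member differed between lymph node and lavage with cell type in the model (0 called, background 0.0%, smallest limma adjusted p = 0.9); 257 members had an unadjusted p under 0.05, and 3 pairs of libraries carry this test.

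Between ILC2s and naive T cells 118 members differed, 58 higher and 60 lower in ILC2s (1.61%; background 4.44%, of which 2.63% higher and 1.81% lower). Members over a promoter window were called at 0.522% (25 of 4785) and those without one at 3.66% (93 of 2543). At an unadjusted p under 0.05 there were 849 members. The called log2 differences ran from 0.72 to 2.72 and from -0.71 to -2.44. Without centring the split was 25 higher and 63 lower. The calls numbered 0 without either ILC2 library, 494 without the lavage naive T library, 206 without that of the lymph node and 41 without either Th2 library.

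Runx2, a transcription factor gene best known from bone, was the first of the members higher in ILC2s, at a region inside the gene (chr17:44688222-44692077). Its tags were 40.1 and 44.3 in naive T cells, 82.9 and 122 in Th2 cells, 223 and 263 in ILC2s, 38.7 in spleen and 44.1 in thymus CD4+ cells. Both ILC2 libraries were highest, both Th2 libraries intermediate, and naive T, spleen and thymus cells at the tag minimum (ILC2 against naive T: log2 2.72, SE 0.22, limma adjusted p = 0.0061). Next was a region 3745 bp outside P2rx7, which encodes an ATP-gated channel (chr5:122696081-122700288). Its tags were 60.2 and 74.3 in naive T cells, 66.1 and 62.3 in Th2 cells, 202 and 262 in ILC2s, 63.9 in spleen and 78.3 in thymus CD4+ cells. Only the ILC2 libraries stood out, with all 6 others at 60.2 to 78.3 (1.98, SE 0.17, limma adjusted p = 0.0068). Gfpt2, an enzyme gene of the hexosamine pathway (1.57), the membrane protein gene Stom (1.93) and the promoter of Swap70, an actin regulator gene (1.36), were also higher in ILC2s (limma adjusted p = 0.0074 to 0.0081). At Swap70 (chr7:110220496-110225414) tags were 170.1 and 251 in naive T cells, 155 and 155 in Th2 cells, 443 and 488 in ILC2s, 239.6 in spleen and 306 in thymus CD4+ cells.

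Prkch, which encodes protein kinase C eta, had the smallest p among members lower in ILC2s (chr12:73696751-73700929, inside the gene). Its tags were 215 and 330.3 in naive T cells, 139.6 and 137 in Th2 cells, 62.5 and 59.1 in ILC2s, 267 in spleen and 310.5 in thymus CD4+ cells. All 6 T cell libraries lay above both ILC2 libraries (-1.94, SE 0.14, limma adjusted p = 0.0042). Usp36, a deubiquitinase gene of the nucleolus, fell further (chr11:118259101-118262502; -2.44, SE 0.21, limma adjusted p = 0.0069). Its tags were 210.2 and 353 in naive T cells, 100.4 and 148 in Th2 cells, 44.5 and 43.4 in ILC2s, 268 in spleen and 188 in thymus CD4+ cells. ILC2s were at the tag minimum there and the lowest T cell library had 100.4. The calcium channel subunit gene Cacnb4 (-2.12), Wee2, a kinase gene of oocytes (-1.56), and the promoter of Ehd3, a gene of endocytic recycling (-2.14), were lower too (limma adjusted p = 0.0069 to 0.0081). At Ehd3 (chr17:73803895-73808179), whose upstream sequence is shown above, tags were 247 and 417 in naive T cells, 199.5 and 198 in Th2 cells, 74.2 and 54.8 in ILC2s, 395 in spleen and 245 in thymus CD4+ cells.

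The spleen and thymus libraries took no part in the test. At the 58 members higher in ILC2s the spleen value was nearer to the naive T mean than to the ILC2 mean in 57, and at the 60 lower ones in 60. For the thymus these counts were 46 and 36, and for Th2 cells 42 and 40. Spleen CD4+ cells, which also were the nearest to 1 of the 2 naive T libraries, thus followed naive T cells at nearly all of these regions, and the thymus and Th2 cells at most.

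**Figure D5:**
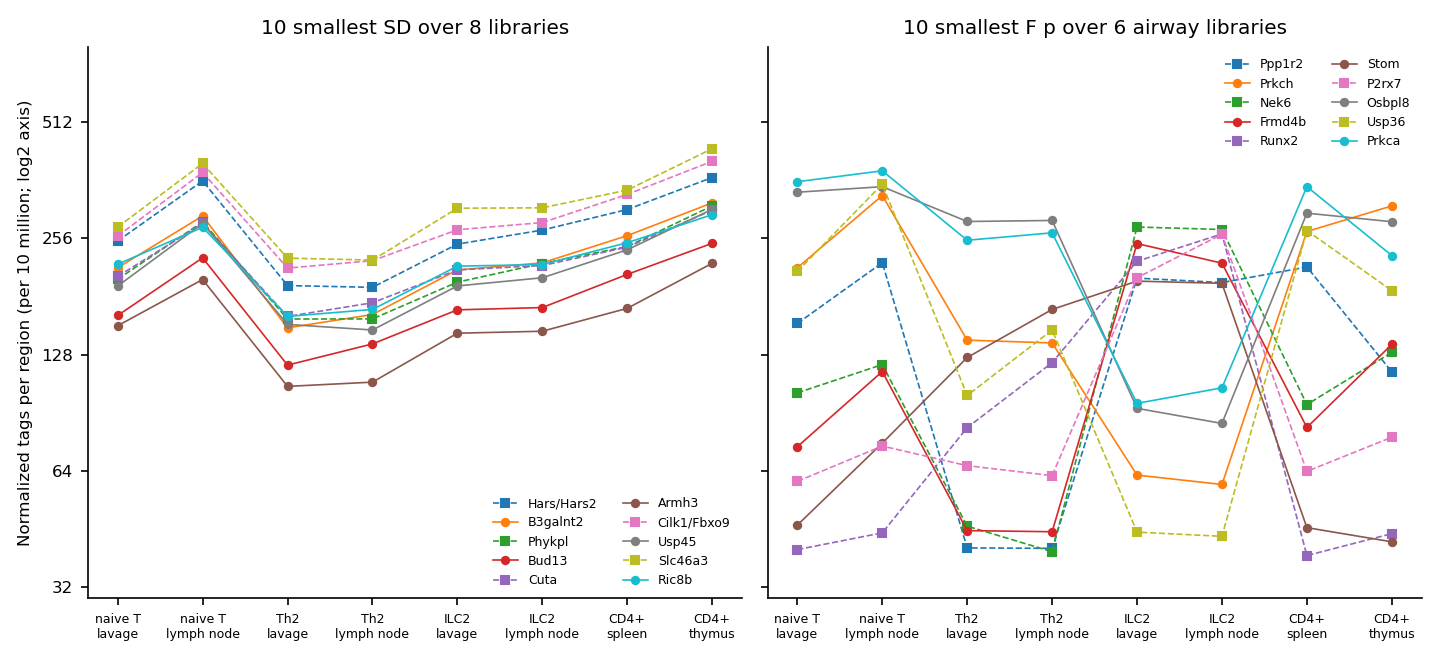
Normalized tags per region (per 10000000 tags in the library, not centred, log2 axis) in each of the 8 libraries for the 10 short constitutive regions with the smallest SD (left) and the 10 with the smallest F test p over the 6 airway libraries (right), each line 1 region named by its gene. On the left all lines run in parallel along the library medians; on the right Prkch, Usp36, Osbpl8 and Prkca are low in ILC2s, Ppp1r2, Nek6 and Frmd4b are at the tag minimum in Th2 cells, and P2rx7 is high in ILC2s alone.

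Th2 cells and naive T cells differed at 5 members by limma, 2 higher and 3 lower in Th2 cells (0.0682%; background 0.163%, of which 0.118% higher and 0.0453% lower), and 1300 had an unadjusted p under 0.05. The count depended on the libraries and the scaling: it became 1191 once naive T replicate 1, from lavage, was dropped and 0 once any other single library was, and it was 0 with the replicate number as a block and 1192 (5 higher, 1187 lower) without centring. Stom, inside the gene, was higher in Th2 cells (chr2:35326589-35330047; 1.92, SE 0.18, limma adjusted p = 0.043). Its tags were 46.4 and 75.6 in naive T cells, 126 and 168 in Th2 cells, 198 and 196 in ILC2s, 45.7 in spleen and 42 in thymus CD4+ cells. Th2 cells and ILC2s were both above the T cells of the other labels, and the same region was also called for ILC2s against naive T cells. The other increase lay at chr13:101546333-101549716, over a promoter window of a gene that is not protein-coding and with no protein-coding gene within 100 kb (2.22, SE 0.21, limma adjusted p = 0.043).

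The 3 members lower in Th2 cells were at the tag minimum in both Th2 libraries. The lowest deposited peak of a list had 34.5 to 36.6 tags, a little below that minimum. A call in every list keeps values from falling lower, so close agreement of the 2 libraries there is partly set by the rule. The SE and p of such members can therefore be too small, also where a group is at the minimum in the other contrasts. A region 14998 bp outside Ppp1r2, which encodes an inhibitor of protein phosphatase 1, and over a promoter window of a gene that is not protein-coding had the smallest p (chr16:31233031-31236543; -1.57, SE 0.13, limma adjusted p = 0.033). Its tags were 154 and 221 in naive T cells, 40.5 and 40.4 in Th2 cells, 202 and 197 in ILC2s, 216 in spleen and 116 in thymus CD4+ cells. The promoter of Abcc4, an exporter gene of cyclic nucleotides and drugs, followed (chr14:118704437-118707456; -1.50, SE 0.15, limma adjusted p = 0.043). Its tags were 127 and 206 in naive T cells, 37.4 and 37.1 in Th2 cells, 129 and 139.7 in ILC2s, 196 in spleen and 178 in thymus CD4+ cells. Every library but the 2 of Th2 cells had at least 127 tags at Abcc4. The promoter of Reck, which encodes a membrane inhibitor of metalloproteinases, was the third (chr4:43874492-43877273; -1.28, SE 0.13, limma adjusted p = 0.048), at 41.8 and 41.3 tags in Th2 cells and 111 to 195 elsewhere.

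Between ILC2s and Th2 cells 181 members differed, 139 higher and 42 lower in ILC2s (2.47%; background 4.16%, of which 2.58% higher and 1.58% lower), with 1336 at an unadjusted p under 0.05. The lean to ILC2s was not stable to the scaling: quantile normalization gave 41 higher and 53 lower, and no centring 409 and 20. The calls numbered 0 without any 1 of the 4 libraries compared, 662 without either naive T library and 103 with the replicate block. Of the 139, 72 lay over a promoter window, beside 12 of the 42. At 34 of the 139 both Th2 libraries had only a single window of 1000 bp, where ILC2s did at none.

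The 5 with the smallest p among the higher ones were Ppp1r2 (1.87), the promoter of Nek6, a mitotic kinase gene (2.24), Frmd4b inside the gene (1.96), the promoter of the fatty acid hydroxylase gene Cyp4v3 (1.77) and the promoter of Ccdc88a, an actin-binding protein gene (1.52), at limma adjusted p = 0.0069 to 0.012. Tags at Nek6 (chr2:38510608-38515334), whose upstream sequence is shown above, were 102 and 121 in naive T cells, 46.1 and 39.6 in Th2 cells, 274 and 269.8 in ILC2s, 95.1 in spleen and 129.8 in thymus CD4+ cells. ILC2s were above and Th2 cells below all other libraries. Tags at Cyp4v3 (chr8:45331395-45334802) were 127 and 229.5 in naive T cells, 39.9 and 42.1 in Th2 cells, 179 and 197 in ILC2s, 226 in spleen and 224 in thymus CD4+ cells. There only the Th2 libraries stood apart. Frmd4b (chr6:97320666-97324942) had the pattern of Nek6, with 248 and 221 tags in ILC2s and 44.9 and 44.6 in Th2 cells. Each of these 5 members was a single window of 1000 bp in both Th2 libraries, so the limit given for SE and p at the tag minimum applies.

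Among members lower in ILC2s than in Th2 cells, Prkch led again (-1.61), followed by a region 5710 bp outside Osbpl8, a lipid transfer protein gene (-2.10), Prkca, which encodes protein kinase C alpha (-1.79), the acetyltransferase gene Kat2b (-1.90) and Wee2 (-1.45), at limma adjusted p = 0.01 to 0.013. Tags at Prkca (chr11:108270836-108275298, inside the gene) were 359 and 383 in naive T cells, 253 and 264 in Th2 cells, 95.8 and 105 in ILC2s, 348 in spleen and 231 in thymus CD4+ cells. Tags at Osbpl8 (chr10:111154998-111159032) were 337 and 348 in naive T cells, 283 and 285 in Th2 cells, 93 and 85 in ILC2s, 297 in spleen and 283 in thymus CD4+ cells. In both regions every T cell library lay above both ILC2 libraries. The same regions had log2 differences from naive T cells of -1.69 at Prkca and -1.75 at Osbpl8, in a comparison that shares the ILC2 libraries.

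The 18 lists of general cell functions, histones included, held 677 short regions. Of these 7 (1.03%) were called for ILC2s against Th2 cells, 2 (0.295%) for ILC2s against naive T cells and 0 for Th2 against naive T cells, beside 2.12%, 1.22% and 0.0475% of the 6310 short regions at coding genes. With so few calls, 0 or 1 in a single list says little about that list. For ILC2s higher than Th2 cells, 1 Mediator region (Med4), 2 DNA repair regions (Fancl and Ercc6l2), 2 zinc finger regions (Zfp236 and Zfp599), 1 at Ube2q2 and 1 at the tubulin complex gene Tubgcp3 were called. Against naive T cells, Ercc6l2 and Zfp983 were higher in ILC2s. No region of the ribosomal, respiratory chain, proteasome, tRNA synthetase, splicing, initiation, chaperonin, exosome, COP9, nucleoporin or histone lists was called in any of the 3 contrasts. Tags at Tubgcp3 (chr8:12670210-12673602) were 169 and 318 in naive T cells, 66.1 and 59 in Th2 cells, 174 and 173 in ILC2s, 287 in spleen and 312 in thymus CD4+ cells. Th2 cells alone were low there.

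Peak length moved with every called height. The deposited tag count is that of the whole called peak, which is built from windows of 1000 bp, so a higher peak can be a denser or a longer one. At all 58 members called higher in ILC2s against naive T cells the mean peak was longer in ILC2s, with medians of 3155 and 1785 bp. At all 60 lower ones it was shorter, at 1535 and 3176 bp. Density moved too: before centring, tags per kb were higher in ILC2s at 47 of the 58 and lower at 59 of the 60. Among the 7210 members not called, ILC2 peaks were longer at 4178 and denser at 499. At the 139 members higher in ILC2s than in Th2 cells the median lengths were 3049 and 1258 bp. ILC2 peaks were denser at 133 of these, and at 6785 of the 7147 members not called. For Runx2 the ILC2 peaks spanned 3756 and 3765 bp and the naive T peaks 1000 bp each. Counted as tags per kb of peak, 32 members differed between ILC2s and naive T cells (23 of them among the 118), 6 between ILC2s and Th2 cells (4 among the 181) and 0 between Th2 and naive T cells, and the median SD of all members fell from 0.24 to 0.136. A called minimum of tags per window holds tags per kb up at weak peaks, so the 2 measures differ in what they can show. Over all members the tallest library was also the one with the longest peak in 3236 (44.2%).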

How the data were processed

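Peak lists of 8 H3K4me2 libraries were used; per the labels' protocols libraries were made with Nextera transposase, and the submitters' processing notes name Bowtie, HOMER and mm10, without versions. Per the file headers, the authors called peaks in each library with findPeaks in windows of 1000 bp, at least 2500 bp apart unless stitched into one region, with an FDR of 0.001, 4-fold over IgG and a minimum of 39.9 to 40.4 tags per 10000000. The headers name the thymus IgG library as background for every list but that of the spleen; the labels give both IgG samples the H3K4me2 antibody. The deposited signal is the tag count of a peak scaled by the authors to 10000000 tags. The authors' deposited fold change (ratio) over IgG was used only for description, and their findPeaks score and p-value were not used for any result.

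Peaks were merged within 500 bp, a library's tags in a region were summed, and log2 values were centred per library on the median of 11038 regions. Heights were tested with limma 3.58.1 (R 4.3.3), cell type as factor, 6 airway libraries, Benjamini-Hochberg adjusted p under 0.05 (3 residual and 2.77 prior degrees of freedom); the procedure was checked on simulated data. The deposited values are scaled tags and no count test was run, although they convert back to whole tag counts with the library totals. Genes and windows came from RefSeq tables of GRCm38.p6. Genes were named by position: overlap of a promoter window or interval, otherwise the nearest coding gene within 100 kb. The named members are, per contrast, the 5 called with the smallest p in each direction; the 10 with the smallest F p, the largest range of cell type means and the smallest SD; the 5 tallest and 5 lowest; those at the length limit; and called or tall members of the gene lists. The motifs of Nrf1, YY1 and Zfp143 were searched in shortened form. The result of 1 of the gene lists is not reported here. Members, lists and tests were chosen with earlier results of these data known. The replicate number is the site in the labels. Differences between the 2 replicates were correlated between cell types over all 11038 regions. The values were 0.081 for naive T and Th2 cells, -0.034 for naive T cells and ILC2s and 0.253 for Th2 cells and ILC2s. A shared difference was thus near absent in the pairs with naive T cells and weak between Th2 cells and ILC2s. The main model has no block, and counts with the replicate block are given as an alternative.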

Additional observations from a re-analysis of the deposited data

How the results depend on the processing

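Merging at 0 or 1000 bp, the tallest peak as height and centring on the short regions alone changed no count by over 1.5 times. Numbers of called members are given here as reported and then under each alternative that moved them further. For ILC2s against naive T cells, 118 became 78 with a limit of 4000 bp, 60 with peaks of at least 80 tags, 39 with equal numbers of peaks (14723 per library) and 32 with tags per kb. For Th2 against naive T cells, 5 became 0, 15 and 0 under the last 3 of these, 1192 without centring, 2 with an intensity trend and 1 with regions called in all 6 airway libraries. For ILC2s against Th2 cells, 181 became 42 with at least 80 tags, 6 with tags per kb, 429 without centring and 94 with quantile normalization; the F test's 189 became 46, 8, 649 and 125. Leaving out 1 library gave 0 to 494, 0 to 1191, 0 to 662 and 0 to 1248 calls in these 4 tests and a median SD of 0.220 to 0.249; a lone library left in a group was assumed to vary like the other groups. The cause of these changes was not tested, except that fewer regions enter under a stricter limit.

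With the replicate block the 4 counts were 89, 0, 103 and 83; of the 118 ILC2 against naive T calls 81 were kept, and of the 181 against Th2 cells 93.

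The median SD of 0.243 was 0.448 without centring. The share of members over a gene, 86.1%, was 84.4% under 4000 bp, 90.4% with at least 80 tags and 90.2% with equal numbers of peaks; that over a window, 65.3%, was 63.9%, 72.2% and 72.0%, and 61.9% for midpoints within 1 kb. With 2 alternatives chosen after seeing the data it was 67.1% (chromosome 18 left out) and 77.0% (ends of genes without a window counted). Among values of named members under the alternatives, 119 lost their call and 1 turned: Ccdc88a, ILC2s against Th2 cells, at -0.01 with tags per kb. Another 434 were unchanged and 22 moved. The 434 hold calls that kept direction and side of the threshold. They also hold values of members named for their SD or range, which have no threshold. The 434 are thus not a count of kept calls, and the 22 that moved were not calls. The tests are limited by n = 2 per cell type, each from its own site.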
